A study of Mus musculus with 9 samples.

Results

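The unfolded protein response and the integrated stress response were followed through 32 genes in mouse macrophages, as a gene set picked by name and known function, with earlier results of these data already known. The probes of these genes were found by their gene name on the arrays, and all 32 genes passed the filter on dim probes, out of 18540 named genes tested. They fall into 14 chaperones and folding factors of the endoplasmic reticulum (ER), 4 genes of ER-associated degradation (ERAD), 5 sensors and transcription factors, and 9 targets of the transcription factor ATF4. Every one of the 32 was well above background on all 9 arrays, so no member entered through a single group.

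Unfolded proteins in the ER are sensed by the membrane proteins PERK (Eif2ak3), IRE1 (Ern1) and ATF6. ATF6 and spliced XBP1 raise chaperones and ERAD genes, the latter carrying misfolded proteins out of the ER for degradation. PERK and related kinases phosphorylate eIF2, which slows general translation while ATF4 is translated more, and ATF4 raises genes of amino acid supply, redox balance and, later, cell death. Macrophages make cytokines, receptors and enzymes that fold in the ER.

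The macrophages were CD45+ F4/80+ cells sorted from peritoneal macrophages of male mice, in 3 groups of 3 arrays each. Ctrl cells were kept alone in regular medium for 24 h. T cells shared a Transwell, a well divided by a porous membrane, with CT-26 cells for 24 h and stayed in its lower chamber, CT-26 being a mouse colon carcinoma line. M cells were the migratory macrophages taken from the upper chamber of such a co-culture, for which the labels state no duration. The labels' cell type field calls the T samples migratory, against their titles and descriptions, and the groups here follow the titles. No strain or genotype is given in the sources used here, and nothing says that arrays of a group came from separate animals or cultures, so the p-values speak only of the variation among these arrays and may reflect technical variation alone.

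The signal is given as log2 minus the array's 75th percentile, so a level of 0 is the brightness of that percentile, and the level of one probe cannot be set against that of another probe. Differences are log2 differences of group means with their moderated standard error (SE) from limma, and a gene is said to have risen or fallen where the Benjamini-Hochberg adjusted p over all 18540 genes was under 0.05. Per the file headers, the Ctrl and M arrays shared slide 1 and the 3 T arrays were alone on slide 2, so that T and its slide cannot be told apart, while M against Ctrl lies within a single slide. Between 60.5% and 78.6% of probes were well above background. M1 and M3 had the highest spread between replicate spots, with median coefficients of variation of 19.7% and 26.6%, against 5.63% to 13.1% on the other arrays. Ctrl arrays were the least alike over all genes. Ctrl3 correlated at 0.969 with Ctrl1 and 0.981 with Ctrl2, but at 0.977 with M2. Arrays within M correlated at 0.988 to 0.992 and within T at 0.993 to 0.996. Without Ctrl3, 4010 genes rose and 3943 fell in M against Ctrl, against 2254 and 2067 with all arrays. All 10 macrophage markers were above background in every group, among them Ptprc, which encodes CD45, and Adgre1, which encodes the F4/80 antigen. Of these 10, 4 rose in T (40%) and 5 in M against Ctrl (50%), and 0 fell in either. At an unadjusted p under 0.05, 1 was lower in each. The largest rises were those of Mertk in T (2.74) and Adgre1 in M against Ctrl (2.86). In M against T 3 rose and 2 fell. Lists of markers for other cell types held genes that rose and genes that fell, and a sum over a list is comparable only with the same sum in another group. Counts of a marker list are to be read against all genes. Of these, 17.5% rose and 27.4% fell in T, and 12.2% rose and 11.1% fell in M against Ctrl. In M against T 14.6% rose and 10.8% fell. The 17 carcinoma epithelium markers summed to 3.66 to 5.75 times the 75th percentile signal in Ctrl, 3.30 to 3.83 in T and 2.92 to 4.28 in M, with 13, 11 and 9 of them above background on all arrays of the group. Of 13 tested, 3 rose in T (Krt19 by 3.63 ± 0.27, Elf3 by 1.46 ± 0.18 and Vil1 by 0.84 ± 0.28) and 6 fell, Epcam among them at -1.604 ± 0.29. In M against T, Krt19 and Elf3 fell by 4.32 ± 0.27 and 1.55 ± 0.18 while Epcam and Ocln rose. Cdx2 was above background on no array, Krt8 on 2 Ctrl and 1 T arrays, and Cdh1 on 2 Ctrl arrays. Granulocyte markers summed to 15.6 to 25.4 in Ctrl, 18.2 to 23.5 in T and 19.8 to 27.4 in M. Most of that sum was the signal of Csf3r alone (levels from 3.88 to 4.64). Of 9 tested, 3 rose in M against Ctrl (S100a8 by 4.97 ± 0.22, Mmp8 by 1.94 ± 0.26 and S100a9 by 1.58 ± 0.28), whereas in T S100a8 rose by 3.06 ± 0.22 and 4 fell. Ly6g was above background on 1 T array only. T and NK cell markers summed to 10.3 to 30.9 in Ctrl, 9.31 to 11.8 in T and 8.20 to 9.81 in M, with 10, 8 and 8 of the 14 on the array above background in all arrays of the group. Most of that sum was the signal of Prf1 alone (levels from 2.14 to 4.71). Of 11 tested, 2 rose and 6 fell in T, Cd3e among them at -2.62 ± 0.65, and 1 rose and 1 fell in M against Ctrl. Gzma also fell in T, where it was above background on no array. Cd8a and Cd8b1 were above background nowhere. B and plasma cell markers summed to 1.88 to 2.53, 1.89 to 2.004 and 2.16 to 2.56 in Ctrl, T and M. In T 5 of 8 tested fell, among them Tnfrsf17, which was above background on no T array. Mzb1, Pax5 and Cd79b were above background on every array and Ms4a1 on none. Mast cell markers summed to 0.1995 to 0.278, 0.355 to 0.375 and 0.152 to 0.213; Tpsb2 rose by 1.54 ± 0.23 in T and fell in M, and Cpa3 and Fcer1a were above background nowhere. Mesothelium and fibroblast markers summed to 0.194 to 0.346, 0.201 to 0.219 and 0.183 to 0.266. Pdgfrb was above background on all T arrays and no Ctrl or M array (at least 2.95-fold higher in T than in Ctrl), Col3a1 and Msln on every array, and Dcn, Lum and Upk3b on none. The part of these other cells in the results below was not tested. In bulk samples, fewer cells of a type and less RNA per cell cannot be told apart.

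Of the 32 genes, 13 passed the test in T against Ctrl, where 45% of all genes did, 8 in M against Ctrl (23.3% of all genes) and 8 in M against T (25.5% of all genes). In T 7 of the 32 genes rose, when 17.5% of all genes did, and 6 fell, when 27.4% of all genes did. The rises were ERAD genes (Syvn1, Sel1l), ATF4 targets (Trib3, Chac1, Sesn2), the sensor Atf6 and the co-chaperone Dnajb9. The falls were 5 ER folding factors (Hspa5, Hsp90b1, Pdia3, Pdia6, Sdf2l1) and the ATF4 target Nupr1. In M against Ctrl only Trib3 and Chac1 rose, 2 of 32 genes with 12.2% of all genes, and 6 genes fell with 11.1% of all genes, namely Hspa5, Hsp90b1, Canx, Pdia6, Hyou1 and Sel1l. In M against T, 0 of the 32 rose by the limma test, and 0 at an unadjusted p under 0.05, when 14.6% of all genes rose. The 8 genes that fell in M against T, with 10.8% of all genes, were Hsp90b1, Canx, Pdia6, Hyou1, Herpud1, Syvn1, Sel1l and Atf6. Differences past the test and at least 2-fold in size were found for 3 genes in T against Ctrl (26.7% of all genes), 2 in M against Ctrl (13.4% of all genes) and 5 in M against T (13.4% of all genes). Groups of arrays did not overlap for 22 of the 32 in T against Ctrl (53.6% of all genes), 13 in M against Ctrl (36.3%) and 15 in M against T (48.3%), of which 13 were lower in M (19.8% of all genes). A total of 16 genes passed in at least 1 comparison and 16 in none. The comparisons of T and of M with Ctrl share the Ctrl arrays, so their values stand side by side and are not independent of each other.

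**Figure D1:**
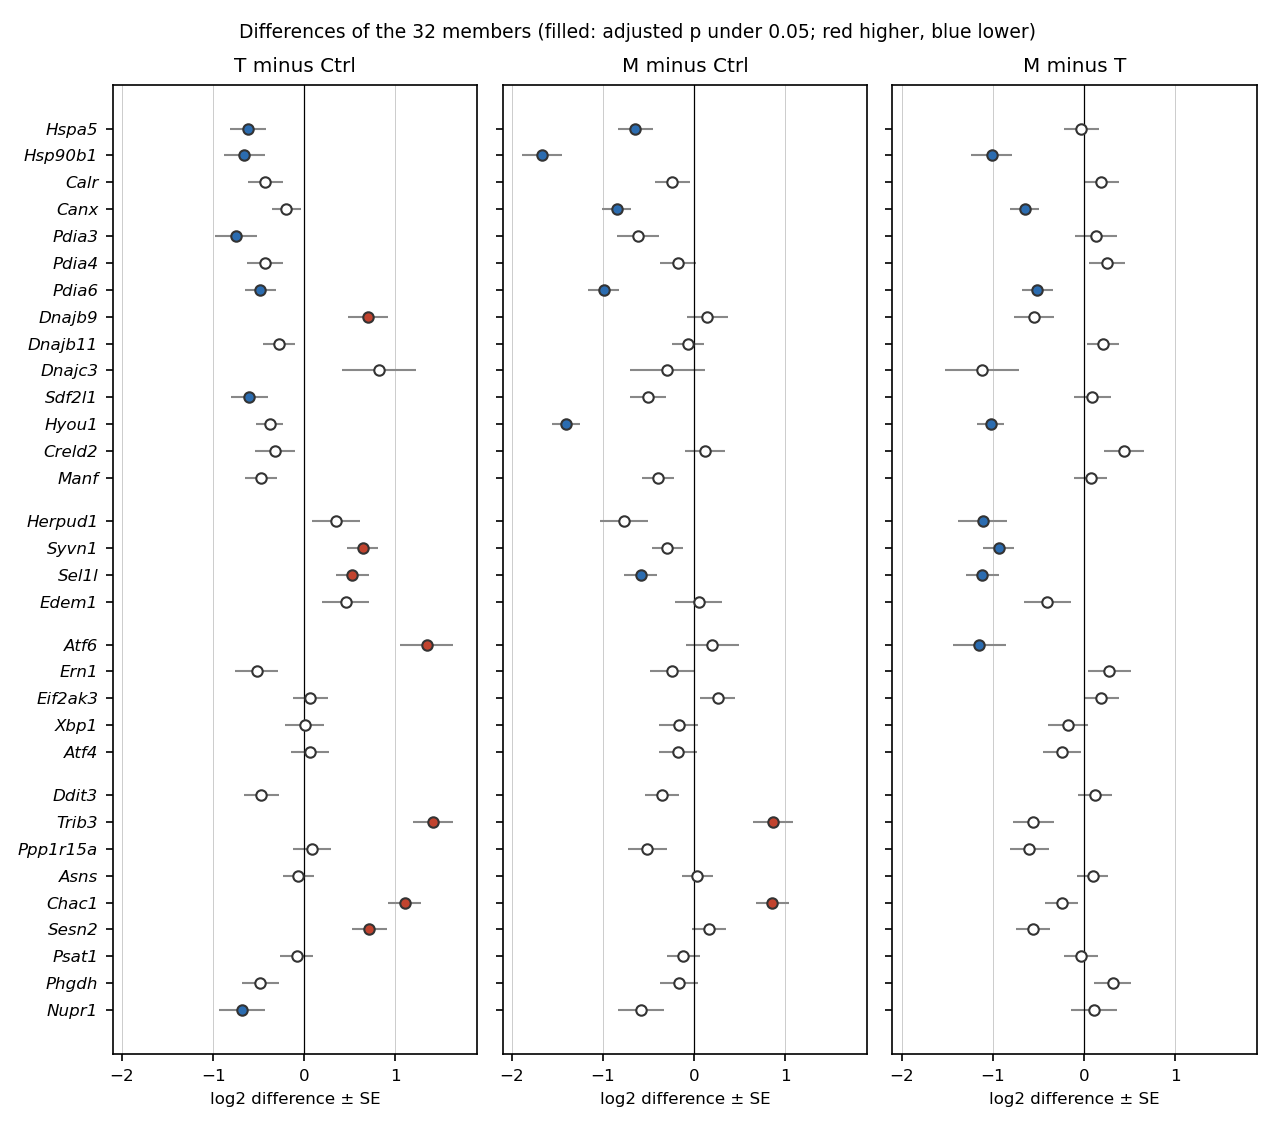
Log2 difference (x axis, ± SE of the limma fit) of each of the 32 genes (y axis, ordered by role) in 3 panels for T less Ctrl, M less Ctrl and M less T, from 3 arrays a group. Filled points passed an adjusted p of 0.05, red for higher and blue for lower. The ERAD genes lie right of 0 in T minus Ctrl and left of 0 in M minus T, and in M minus T the filled points are all blue, 8 in number.

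Among the sensors and transcription factors, Atf6 alone passed the test. Atf6 encodes the membrane-bound precursor of a transcription factor that is released by cleavage on ER stress, and its probe lies at chr1:172635311-172635370 (mm9, minus strand, as all probe positions here are given by the array files). Its level was -2.75, -2.04 and -1.98 on the Ctrl arrays, -0.82, -1.004 and -0.92 on the T arrays, and -1.82, -2.69 and -1.67 on the M arrays. Every T array was above every Ctrl and M array, and Ctrl and M overlapped. The difference was 1.34 ± 0.29 in T against Ctrl (2.54-fold, limma adjusted p = 0.0052) and -1.15 ± 0.29 in M against T (2.21-fold lower, adjusted p = 0.017), while M against Ctrl gave 0.20 ± 0.29 (adjusted p = 0.63). The T rise of Atf6 had an adjusted p of 0.12 with the deposited value table (0.0018 to 0.12 over the alternatives). Its M against T fall had an adjusted p of 0.052 without T1 and again 0.052 without T3 (0.011 to 0.32 over the alternatives, the highest with that table).

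None of the other 4 sensors and factors passed the test in any comparison. Ern1, the kinase and endonuclease that splices Xbp1 mRNA, had levels of -1.003, -1.33 and -1.95 in Ctrl, -1.75, -2.11 and -1.996 in T, and -1.60, -1.62 and -1.80 in M. Ctrl spread over the widest range, and it overlapped both other groups. Eif2ak3, which encodes the eIF2 kinase PERK, stood at 0.06, 0.47 and 0.67 in Ctrl, 0.32, 0.47 and 0.61 in T, and 0.53, 0.67 and 0.78 in M. The 3 groups again overlapped, with differences from Ctrl of 0.07 ± 0.19 in T and 0.26 ± 0.19 in M.

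Xbp1, whose message yields the active factor only after splicing by IRE1, was at 3.82, 3.53 and 4.28 in Ctrl, 4.002, 3.77 and 3.88 in T, and 3.52, 3.94 and 3.68 in M. The T mean differed from Ctrl by 0.01 ± 0.22 and the M mean by -0.17 ± 0.22. Splicing of Xbp1 was not measured here. Atf4, which is controlled mainly at translation, read 4.24, 4.02 and 4.33 in Ctrl, 4.57, 4.09 and 4.13 in T, and 3.74, 4.32 and 4.01 in M. These groups overlapped as well, at 0.06 ± 0.21 in T (adjusted p = 0.82) and -0.18 ± 0.21 in M (adjusted p = 0.54). The second Atf4 probe gave -0.01 and -0.19. Neither protein levels nor phosphorylation were measured, and a message that does not pass the test is not shown to be equal.

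Among the ER chaperones and folding factors, 5 of 14 fell in T (35.7%, with 27.4% of all genes) and 1 rose (7.14%, with 17.5%). In M against Ctrl 5 of 14 fell (35.7%, with 11.1% of all genes). On the T arrays 10 of the 14 lay wholly below Ctrl (71.4%, with 31.1% of all genes doing so) and 2, Dnajb9 and Dnajc3, wholly above (14.3%, with 22.5% of all genes). On the M arrays 7 of 14 lay wholly below Ctrl (50%, with 19.6% of all genes) and 0 wholly above (16.6% of all genes). The deepest fall was that of Hsp90b1, which encodes GRP94, the HSP90 chaperone of the ER, with its probe at chr10:86153770-86153829 on the minus strand. Its level was 4.35, 4.03 and 3.85 in Ctrl, 3.61, 3.19 and 3.46 in T, and 2.08, 2.75 and 2.41 in M. The 3 groups were fully separated, with Ctrl highest and M lowest. Hsp90b1 fell by 1.67 ± 0.22 in M against Ctrl (3.17-fold, adjusted p = 0.00062) and by 1.01 ± 0.22 in M against T (2.01-fold, adjusted p = 0.0087), and it was 0.66 ± 0.22 lower in T than in Ctrl (adjusted p = 0.036, and 0.060 with the replicate number as a block, in a range of 0.018 to 0.38 over the alternatives). Without M1 and M3 the M against T difference of Hsp90b1 was -0.67 (adjusted p = 0.17, the highest of a range that began at 0.00050).

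Hyou1, the HSP70-like chaperone and nucleotide exchange factor of the ER, followed the same order. Its probe at chr9:44199354-44199413, plus strand, read -1.48, -1.41 and -1.45 in Ctrl, -1.91, -1.78 and -1.80 in T, and -2.87, -2.96 and -2.73 in M. No array of a group crossed into another group, and the arrays of each group lay close together. The fall was 1.40 ± 0.15 in M against Ctrl (2.65-fold, adjusted p = 0.00012) and 1.02 ± 0.15 in M against T (2.03-fold, adjusted p = 0.00086), whereas T differed from Ctrl by -0.38 ± 0.15 without passing the test (adjusted p = 0.061).

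The other chaperones that fell did so by under 2-fold. Hspa5, which encodes BiP, the main HSP70 of the ER, fell by 0.62 ± 0.19 in T and 0.64 ± 0.19 in M, and M against T gave -0.03. The M call of Hspa5 was lost in 14 of the 23 alternatives, among them those without Ctrl1, Ctrl2, M1, M3, T2 or T3. Pdia6, a disulfide isomerase bound to BiP, fell by 0.48 ± 0.17 in T (adjusted p = 0.040, and 0.077 with the replicate block, in a range of 0.017 to 0.83) and by 0.99 ± 0.17 in M (adjusted p = 0.0029), and its second probe gave -0.46 and -0.85. Canx (calnexin), the membrane lectin chaperone of glycoproteins, fell by 0.85 ± 0.16 in M against Ctrl (adjusted p = 0.0054) and by 0.65 ± 0.16 in M against T (adjusted p = 0.015), and its T difference was -0.20 ± 0.16. The M against T fall of Canx was lost without M3 and without T3, and that of Pdia6 (-0.51 ± 0.17, adjusted p = 0.0497) in 15 of the 23 alternatives, among them each omission of 1 array save those of Ctrl3 and M2. Pdia3, the disulfide isomerase that works with calnexin and calreticulin, fell by 0.75 ± 0.23 in T, and Sdf2l1, a partner of ER DnaJ proteins, by 0.60 ± 0.20 (adjusted p = 0.033, and 0.060 with the replicate block, in a range of 0.014 to 0.55). Dnajb9, the BiP co-chaperone ERdj4, rose by 0.70 ± 0.22 in T (adjusted p = 0.027) and its second probe gave 0.73. The call of Dnajb9 was lost without Ctrl1, Ctrl2, T2 or T3.

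The remaining 6 folding factors passed nowhere: Calr (calreticulin), Pdia4, Dnajb11 and Dnajc3 (BiP co-chaperones), Creld2 and Manf (a secreted ER stress factor). Their differences from Ctrl ran from -0.47 for Manf to 0.82 for Dnajc3 in T and from -0.40 for Manf to 0.12 for Creld2 in M. Dnajc3 had the widest spread, with Ctrl arrays from -3.93 to -2.43, and its M against T difference of -1.12 ± 0.41 had an adjusted p of 0.071. A dim second probe of Dnajb11, above background on 4 of 9 arrays, gave -2.19 in T and -0.95 in M where the main probe gave -0.27 and -0.07, so the probes of Dnajb11 disagreed in size.

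The falls of T against Ctrl depended on scaling and on single arrays. With each array scaled to its median, the median gene itself moved from -0.14 to 0.28 in T and from -0.09 to 0.21 in M, and 0 of the 6 genes called lower in T stayed called, with Hspa5 at -0.19, Hsp90b1 at -0.23, Pdia3 at -0.32, Pdia6 at -0.06, Sdf2l1 at -0.18 and Nupr1 at -0.26 (adjusted p from 0.274 to 0.833). The count of genes lower in T was also 0 without Ctrl1, without T2 or without T3, and 3 without Ctrl2 or without M3, while Pdia6, Sdf2l1 and Nupr1 also lost the call without Ctrl3. The falls of Hsp90b1 and Hyou1 in M against Ctrl passed in each of the 23 alternatives run. Under median scaling 65.8% of all calls in T against Ctrl were rises, against 39.0% in the main setting, and in M against Ctrl 74.3% against 52.2%.

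**Figure D2:**
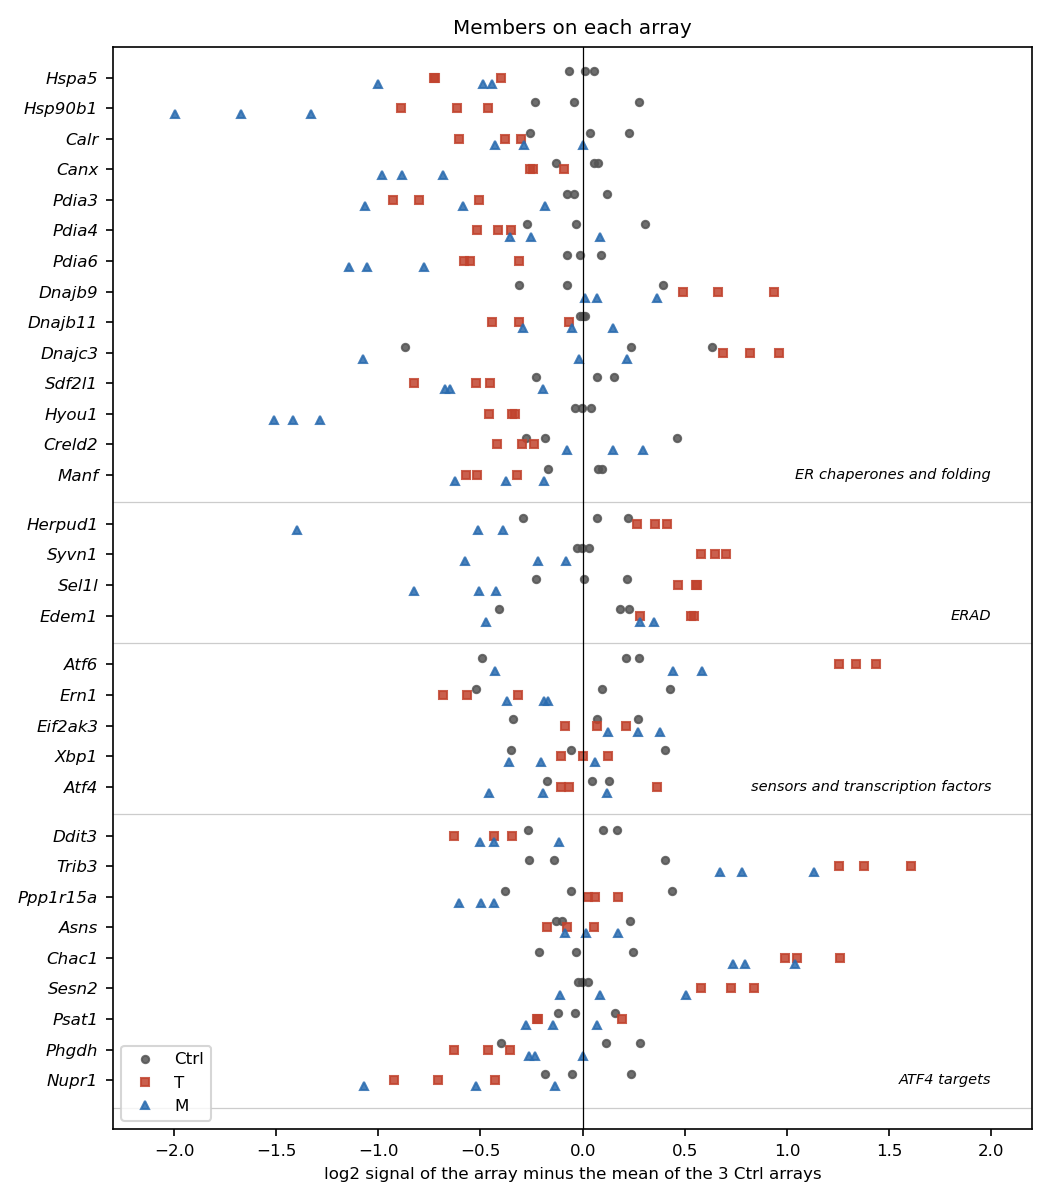
Level of each gene on each array minus the mean of its 3 Ctrl arrays (x axis, log2), with genes on the y axis grouped by role. Circles are Ctrl, squares T and triangles M. For Hsp90b1 and Hyou1 the triangles lie farthest left; for Trib3 and Chac1 the squares and triangles all lie right of the circles.

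The promoters were searched for short sequences bound by the factors that raise such genes. The genes were picked by known function in these pathways, so a share above that of all promoters is no independent result. RefSeq promoter windows (GRCm38.p6, 250 bases before the start and 50 after) were found for 29 of the 32 genes, and not for Hyou1, Manf and Atf6. They were searched on both strands for the ER stress element ERSE, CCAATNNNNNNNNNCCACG, which is bound by ATF6 together with NF-Y, for its shorter form ERSE-II (ATTGGNCCACG), for the XBP1-bound UPR element TGACGTGG, and for the ATF4 core TGATGNAA. ERSE was present in 7 of 12 folding factor promoters (58.3%), in Syvn1 among 4 ERAD promoters, and in 0 of 9 ATF4 targets and 0 of 4 sensors, while 39 of 32851 promoters in the table (0.119%) held it. The 7 were Hspa5, Hsp90b1 (with 2 copies), Calr, Canx, Pdia6, Dnajc3 and Creld2. ERSE-II was found in Dnajb11 and Herpud1, against 0.0365% of promoters. The UPR element was in 0 of the 29, against 0.676% of promoters, which says only that these letters are not in these windows. No match overlapped another. The 250 bases upstream of the start are shown for the folding and ERAD genes with a match and the largest differences, 5′ to 3′ on the gene's own strand, with ERSE or ERSE-II matches (and in Herpud1 also an ATF4 core, TTGCATCA on the opposite strand) in capitals.
Hsp90b1, chr10:86705445-86705694, minus strand: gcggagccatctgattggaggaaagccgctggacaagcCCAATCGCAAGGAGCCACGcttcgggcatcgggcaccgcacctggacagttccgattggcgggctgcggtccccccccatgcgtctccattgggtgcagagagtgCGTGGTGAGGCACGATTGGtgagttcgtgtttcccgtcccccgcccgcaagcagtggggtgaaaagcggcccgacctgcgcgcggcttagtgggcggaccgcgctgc
Dnajc3, chr14:118937682-118937931, plus strand: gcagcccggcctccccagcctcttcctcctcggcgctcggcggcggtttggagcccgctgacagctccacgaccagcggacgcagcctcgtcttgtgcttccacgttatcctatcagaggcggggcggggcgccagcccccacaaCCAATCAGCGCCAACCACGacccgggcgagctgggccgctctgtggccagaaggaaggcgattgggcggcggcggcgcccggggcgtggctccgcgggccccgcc
Herpud1, chr8:94386179-94386428, plus strand: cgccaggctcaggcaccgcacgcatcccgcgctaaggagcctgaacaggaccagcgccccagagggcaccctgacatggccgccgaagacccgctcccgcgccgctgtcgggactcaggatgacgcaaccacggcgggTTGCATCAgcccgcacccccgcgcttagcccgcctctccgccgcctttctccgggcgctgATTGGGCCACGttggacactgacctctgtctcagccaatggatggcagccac
Counted from the start, with negative numbers upstream, the matches ended at -194 and -89 in Hsp90b1, the nearer one on the opposite strand, and at -87 in Dnajc3. In Herpud1 the ATF4 core ended at -105 and ERSE-II at -42.

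Of the 8 genes with ERSE, 3 fell (37.5%) and 1, Syvn1, rose in T (12.5%), where 26.0% of all 13362 tested genes with a promoter in the table fell and 17.9% rose. In M against Ctrl and in M against T 4 of the 8 fell (50% each), where 10.3% and 10.6% of those genes fell. In both, 0 of the 8 rose by limma, nor at an unadjusted p under 0.05, where 12.9% and 14.9% of those genes rose by limma. The differences of these 8 in M against Ctrl ran from -1.67 ± 0.22 for Hsp90b1 to 0.12 ± 0.22 for Creld2. Of the 14 tested genes with ERSE outside the 32, 3 rose (21.4%) and 5 fell (35.7%) in T. In M against Ctrl 2 rose (14.3%) and 0 fell by the limma test (3 were lower at an unadjusted p under 0.05). In M against T 2 rose and 2 fell (14.3% each).

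**Figure D3:**
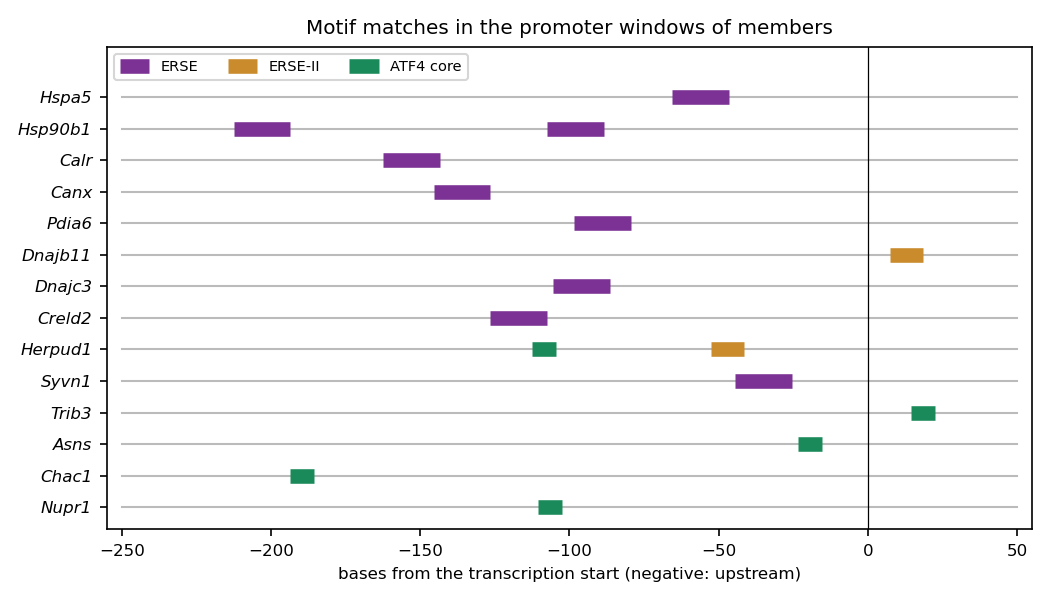
Positions of motif matches in the promoter windows (x axis, bases from the transcription start, negative upstream) of the 14 genes with a match (y axis). Grey lines are the windows searched, and colours mark ERSE, ERSE-II and the ATF4 core. ERSE lies upstream in all 8 genes that hold it, between -212 and -26.

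In T, the 4 ERAD genes all had arrays wholly above the Ctrl arrays (100%, with 22.5% of all genes), and 2 passed the test. Syvn1 encodes HRD1, the ubiquitin ligase of the ERAD channel, and Sel1l its membrane partner. Syvn1 had levels from 0.99 to 1.04 in Ctrl, 1.59 to 1.71 in T and 0.43 to 0.93 in M, with no overlap between any groups. It rose by 0.64 ± 0.17 in T against Ctrl (1.56-fold, adjusted p = 0.013) and fell by 0.93 ± 0.17 in M against T (1.91-fold, adjusted p = 0.0032), and both calls held in each of the 23 alternatives.

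Sel1l, with its probe at chr12:93044963-93045022 on the minus strand, read -0.21, 0.03 and 0.24 in Ctrl, 0.58, 0.48 and 0.57 in T, and -0.41, -0.49 and -0.81 in M. T was highest and M lowest without overlap. The rise in T was 0.53 ± 0.18 (adjusted p = 0.037, and 0.071 with the replicate block, in a range of 0.010 to 0.25), and without Ctrl1, Ctrl2, T1, T2 or T3 its adjusted p lay above 0.05 each time. The fall in M against T was 1.11 ± 0.18 (2.16-fold, adjusted p = 0.0016) and held in each alternative, and the fall in M against Ctrl was 0.59 ± 0.18 (adjusted p = 0.043), lost in 15 of the 23 alternatives.

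Herpud1 encodes a stress-induced scaffold of the HRD1 complex, and its probe lies at chr8:96919117-96919176 on the plus strand. It read 2.37, 2.73 and 2.89 in Ctrl, 2.93, 3.08 and 3.02 in T, and 2.15, 2.28 and 1.26 in M. M3 was far below the other M arrays, and all M arrays were below all T arrays. Herpud1 fell by 1.11 ± 0.26 in M against T (2.16-fold, adjusted p = 0.013), and without M1 and M3 the difference was -0.73 (adjusted p = 0.12, in a range of 0.0041 to 0.12). Against Ctrl it gave 0.35 ± 0.26 in T (adjusted p = 0.31) and -0.77 ± 0.26 in M (adjusted p = 0.059). Edem1, a lectin that hands misfolded glycoproteins to ERAD, passed nowhere, at 0.45 ± 0.26 in T and 0.05 ± 0.26 in M.

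Of the 9 ATF4 targets, 3 rose (33.3%, with 17.5% of all genes) and 1 fell (11.1%, with 27.4%) in T, and 2 rose in M against Ctrl (22.2%, with 12.2%). Trib3, a pseudokinase induced by ATF4 and CHOP, had the largest rise among the 32 genes. Its probe at chr2:152163161-152163220, minus strand, read 1.87, 1.99 and 2.54 in Ctrl, 3.74, 3.51 and 3.39 in T, and 2.80, 2.92 and 3.27 in M. Every co-cultured array was above every Ctrl array, and every T array above every M array. Trib3 rose by 1.42 ± 0.22 in T (2.67-fold, adjusted p = 0.0010) and by 0.86 ± 0.22 in M (1.82-fold, adjusted p = 0.023), and M against T gave -0.55 ± 0.22, which did not pass (adjusted p = 0.093).

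Chac1 encodes an enzyme that degrades glutathione, and its probe lies at chr2:119179990-119180049 on the plus strand. It stood at 0.85, 1.03 and 1.31 in Ctrl, 2.32, 2.11 and 2.05 in T, and 1.86, 1.79 and 2.10 in M. T and M overlapped, and both lay wholly above Ctrl. Chac1 rose by 1.10 ± 0.18 in T (2.14-fold, adjusted p = 0.0014) and by 0.86 ± 0.18 in M (1.81-fold, adjusted p = 0.0099). With only M2 in the M group the M differences were 0.78 for Trib3 (adjusted p = 0.27, in a range of 0.0025 to 0.27) and 0.73 for Chac1 (adjusted p = 0.22, in a range of 0.0020 to 0.22). Trib3 in M also had an adjusted p above 0.05 without Ctrl1, without Ctrl2 or without M3. Its call in M against Ctrl was lost as well with only the compared groups fitted and with the deposited value table. The losses came in 7 of the 23 alternatives. Sesn2 (sestrin 2), a stress-induced inhibitor of mTORC1, rose by 0.72 ± 0.19 in T (1.64-fold, adjusted p = 0.012) and gave 0.16 ± 0.19 in M, and M against T had an adjusted p of 0.055. The T rises of Trib3, Chac1 and Sesn2 passed in each of the 23 alternatives.

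The other 6 ATF4 targets did not rise. Ddit3 encodes CHOP, the proapoptotic partner of ATF4, and gave -0.47 ± 0.19 in T (adjusted p = 0.065) and -0.35 ± 0.19 in M (adjusted p = 0.19). Ppp1r15a encodes GADD34, which returns the phosphatase to eIF2, and gave 0.09 ± 0.21 in T and -0.51 ± 0.21 in M, with all M arrays below all Ctrl arrays but no pass (adjusted p = 0.097). The enzymes of amino acid synthesis were close to Ctrl or below it, with Asns (asparagine synthetase) at -0.06 ± 0.17 and 0.03 ± 0.17 in T and M, Psat1 (serine synthesis) at -0.08 ± 0.18 and -0.12 ± 0.18, and Phgdh, the first enzyme of that pathway, at -0.48 ± 0.20 and -0.16 ± 0.20. Nupr1, a small stress-induced chromatin protein, fell by 0.68 ± 0.25 in T (adjusted p = 0.048, and 0.077 with the replicate block, in a range of 0.011 to 0.385), a call lost in 13 of the 23 alternatives.

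The ATF4 core was found in 4 of the 9 ATF4 target promoters (44.4%), those of Trib3, Asns, Chac1 and Nupr1, against 3.97% of all promoters. These genes were picked as ATF4 targets, so this share is no independent result. The core did not separate the genes that rose from the others, since Trib3 and Chac1 rose, Asns did not pass and Nupr1 fell in T. In Trib3 the match, TTACATCA on the opposite strand, lies 15 to 22 bases after the start, so no upstream bases of that gene are shown. For Chac1 and Nupr1 the 250 upstream bases are given on the gene's own strand, with the core (TTGCATCA, on the opposite strand in both) in capitals.
Chac1, chr2:119350992-119351241, plus strand: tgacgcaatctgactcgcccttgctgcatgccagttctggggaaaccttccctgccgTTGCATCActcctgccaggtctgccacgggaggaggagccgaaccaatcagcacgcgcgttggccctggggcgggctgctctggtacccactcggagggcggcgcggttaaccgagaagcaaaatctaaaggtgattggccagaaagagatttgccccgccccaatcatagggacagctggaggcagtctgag
Nupr1, chr7:126625471-126625720, minus strand: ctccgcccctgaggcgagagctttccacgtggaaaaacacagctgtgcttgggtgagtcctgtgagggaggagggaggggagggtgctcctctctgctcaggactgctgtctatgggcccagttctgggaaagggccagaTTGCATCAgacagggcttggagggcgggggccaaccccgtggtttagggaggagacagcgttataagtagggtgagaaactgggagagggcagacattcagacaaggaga
The match ended at -186 in Chac1 and at -103 in Nupr1.

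Set against each other, the roles gave different medians. In T against Ctrl the median difference was -0.43 for the folding factors, 0.49 for ERAD, -0.06 for the ATF4 targets and -0.14 for all genes. In M against Ctrl the medians were -0.45, -0.44 and -0.12, against -0.09 for all genes. In M against T they were 0.02, -1.02 and -0.03, against 0.11 for all genes. The median of the 14 folding factors among the 32 was thus below the median gene in both co-cultured groups against Ctrl. That of the 4 ERAD genes was above it in T, and below it in M against Ctrl and against T. Single genes went the other way, namely Dnajb9 and Dnajc3 in T, and Dnajb9, Dnajb11, Creld2 and Edem1 in M against Ctrl. For other genes of these roles, listed further on, the medians shared these directions only for ERAD in T and in M against T. The 31 other folding genes had medians of -0.001 in T and 0.017 in M against Ctrl, above the median gene. The 22 other ERAD genes were at 0.04 and 0.03, also above it, and at -0.02 in M against T, below it. Folding factors and ERAD together had a median of -0.35 in T and -0.45 in M against Ctrl, but of 0.074 in T under median scaling, where the median gene was at 0.28. Relative to the median gene, the folding factors were at -0.29 and ERAD at 0.63 in T under both scalings, since a scaling factor moves all genes of an array alike. These medians are descriptions of chosen genes and carry no test. Roles also differed in probe brightness, which is no measure of abundance. In T, the 7 genes that rose had mean Ctrl levels from -2.26 (Atf6) to 2.13 (Trib3). Those of the 6 that fell ran from 4.08 (Hsp90b1) to 5.56 (Nupr1). With quantile normalization the T median was -0.22 for the folding factors and 0.49 for ERAD. Whether the T differences go with role or with probe brightness was not tested.

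**Figure D4:**
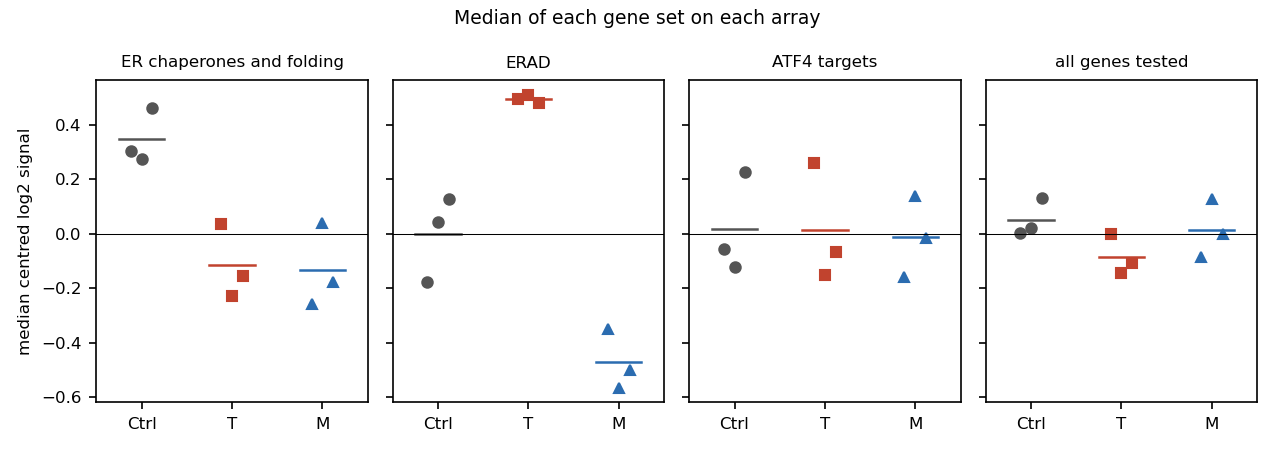
Median over each gene set of the log2 level, each gene first centred on its mean over the 9 arrays (y axis), for each array of Ctrl, T and M (x axis), with short lines at the group means. On the ERAD panel the T arrays lie between 0.48 and 0.51 and the M arrays between -0.57 and -0.35; on the ATF4 target panel the 3 groups overlap.

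Other genes of the 2 pathways were read from lists drawn up by function. Beside them, the medians of all genes were -0.14 in T against Ctrl, -0.09 in M against Ctrl and 0.11 in M against T, the order in which list medians are given. Of all genes, 17.5% rose and 27.4% fell in T, 12.2% rose and 11.1% fell in M against Ctrl, and 14.6% rose and 10.8% fell in M against T, and shares of a list in T and in M against Ctrl are to be read against these. Of 31 other ER folding, oxidation and glycosylation genes, 5 rose (16.1%) and 2 fell (6.45%) in T, 1 rose (3.23%) and 0 fell in M against Ctrl by the limma test (2 were lower at an unadjusted p under 0.05), and 2 rose and 3 fell in M against T, with medians of -0.001, 0.017 and -0.06. Ero1a, the oxidase that recharges disulfide isomerases, rose by 1.78 ± 0.42 in T and fell by 1.52 ± 0.42 in M against T. Clgn (calmegin), a calnexin relative, rose by 1.32 ± 0.19 in T, and Fkbp14, an ER prolyl isomerase, by 1.36 ± 0.29 in T and 1.48 ± 0.29 in M. Tmx1, a membrane oxidoreductase, rose by 1.49 ± 0.40 in T. In M against T, Clgn fell by 0.99 ± 0.19, and Fkbp11 and Nucb2 were 1.02 ± 0.20 and 0.76 ± 0.17 higher.

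Of 22 other ERAD genes, 2 rose and 2 fell in T (9.09% each), 0 rose and 1 fell (4.55%) in M against Ctrl, and 0 rose and 2 fell in M against T, with medians of 0.04, 0.03 and -0.02. Where the limma test gave 0 rises, 2 genes were higher in M than in Ctrl and 1 higher than in T at an unadjusted p under 0.05. Faf2, which tethers the p97 segregase to the ER, rose by 1.19 ± 0.16 in T and fell by 1.0001 ± 0.16 in M against T. Vcp, the segregase itself, fell by 0.54 ± 0.15 in T. Derl3, a derlin of the ERAD channel, fell by 1.40 ± 0.36 in T, where it was above background on 2 of 3 arrays. Erlec1 was above background on all T arrays and no Ctrl array, at least 2.18-fold higher in T by a bound that sets the T mean against the lowest detectable signal of the Ctrl arrays (adjusted p = 0.036). Ube2j2, an ERAD ubiquitin-conjugating enzyme, fell by 0.78 ± 0.24 in M against Ctrl and by 0.73 ± 0.24 in M against T.

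Among 27 genes of the translocon, ER exit and retrieval, 3 rose (11.1%) and 0 fell in T, 2 rose (7.41%) and 4 fell (14.8%) in M against Ctrl, and 0 rose and 5 fell in M against T, with medians of -0.03, -0.16 and -0.18. Each 0 of the limma test was also 0 at an unadjusted p under 0.05. Kdelr3, a receptor that returns escaped chaperones to the ER, rose by 2.69 ± 0.19 in T (6.45-fold, adjusted p = 9.7e-06) and by 1.87 ± 0.19 in M (3.66-fold, adjusted p = 0.00010), and was 0.82 ± 0.19 lower in M than in T. Sec24d, a coat protein of ER exit vesicles, rose by 1.04 ± 0.20 and 1.003 ± 0.20. Srprb, a subunit of the signal recognition particle receptor, rose by 0.53 ± 0.16 in T and fell by 1.25 ± 0.16 in M against T. Sec11a of the signal peptidase and Srp54a of the recognition particle fell by 0.82 ± 0.16 and 0.81 ± 0.22 in M against Ctrl, and by 0.82 ± 0.16 and 0.68 ± 0.22 in M against T.

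Of 16 tested genes among 17 other regulators of the unfolded protein response, 6 rose (37.5%) and 1 fell (6.25%) in T, 7 rose (43.8%) and 0 fell in M against Ctrl by the limma test (0 also at an unadjusted p under 0.05), and 2 rose and 4 fell in M against T, with medians of 0.32, 0.28 and 0.10. Tmbim6 (BAX inhibitor 1), an ER membrane protein that restrains IRE1, rose by 1.86 ± 0.16 in T and fell by 1.18 ± 0.16 in M against T. The ER-bound factors Creb3l1 and Creb3l2 and the ER protein Wfs1 (wolframin) were among those that rose, Creb3l1 by 1.15 ± 0.17 and Wfs1 by 1.07 ± 0.22 in T, and Creb3l2 by 0.99 ± 0.19 in M. Creb3l3 rose by 1.84 ± 0.25 in M against Ctrl and was 1.82 ± 0.25 higher in M than in T. Nfyc, a subunit of the factor NF-Y that binds the CCAAT end of ERSE, rose by 0.86 ± 0.19 in M. Bhlha15 (MIST1), an XBP1 target, was above background on all T arrays and on no Ctrl or M array, and was at least 1.94-fold higher in T than in Ctrl (adjusted p = 5.3e-05). It is also among the 7 counted as higher in M than in Ctrl, where both groups were below background and no size can be given.

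On the eIF2 side, 3 of 15 genes of the kinases, eIF2, eIF2B and the phosphatase rose (20%) and 0 fell in T by the limma test (0 also at an unadjusted p under 0.05), 1 rose and 1 fell (6.67% each) in M against Ctrl, and 2 rose and 3 fell in M against T, with medians of -0.23, -0.01 and 0.07. Ppp1r15b, the constitutive phosphatase subunit for eIF2, rose by 0.88 ± 0.23 in T and fell by 1.16 ± 0.23 in M against T. Impact, an inhibitor of the kinase GCN2, rose by 0.77 ± 0.24 in T, fell by 0.76 ± 0.24 in M against Ctrl and by 1.53 ± 0.24 in M against T. The kinase PKR (Eif2ak2) rose by 0.80 ± 0.18 in T. Eif2b3 was 0.66 ± 0.18 higher in M than in Ctrl and 0.91 ± 0.18 higher than in T, and the kinase GCN2 (Eif2ak4) was 0.78 ± 0.24 higher in M than in T.

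Of 18 tested genes among 19 other ATF4 and CHOP targets and partners, 8 rose (44.4%) and 2 fell (11.1%) in T, 4 rose (22.2%) and 0 fell in M against Ctrl by the limma test (1 was lower at an unadjusted p under 0.05), and 1 rose and 4 fell in M against T, with medians of 0.43, -0.03 and -0.20. Gdf15, a secreted stress cytokine, rose by 1.40 ± 0.15 in T and 1.19 ± 0.15 in M. Atf3, a stress-induced repressor, rose by 1.33 ± 0.19 and 0.91 ± 0.19, and Gadd45a by 1.19 ± 0.19 and 1.31 ± 0.19. Stc2 (stanniocalcin 2) rose by 0.93 ± 0.23 in M. Ddit4 (REDD1), an inhibitor of mTORC1, and the autophagy gene Map1lc3b fell by 1.05 ± 0.17 and 0.83 ± 0.17 in M against T, as did Klhl24 by 0.89 ± 0.27. Vldlr, a lipoprotein receptor, fell by 1.28 ± 0.23 in T and was 0.92 ± 0.23 higher in M than in T.

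Genes of amino acid supply moved both ways. Of 23 tested transport and synthesis genes among 24, 6 rose (26.1%) and 7 fell (30.4%) in T, 2 rose and 2 fell (8.7% each) in M against Ctrl, and 4 rose and 3 fell in M against T, with medians of -0.16, 0.05 and 0.20. Cth, which makes cysteine from cystathionine, rose by 1.71 ± 0.22 in T and 2.12 ± 0.22 in M (4.36-fold, adjusted p = 9.2e-05). Cbs, the enzyme before it, rose by 1.43 ± 0.31 in T and fell by 2.07 ± 0.31 in M against T. Slc7a11, the cystine transporter, passed in both comparisons at 2.34 ± 0.76 and 2.71 ± 0.76, but it was above background on 1 of 3 Ctrl arrays and its groups overlapped. Aldh1l2 rose by 1.16 ± 0.23 in T. Mthfd1l and Got1 fell by 0.68 ± 0.21 and 0.56 ± 0.17 in M against Ctrl, and Mthfd2l, Shmt1 and Slc1a5 were 1.66 ± 0.26, 1.18 ± 0.20 and 0.93 ± 0.16 higher in M than in T.

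The 20 cytosolic tRNA synthetases, many of which ATF4 can induce, gave 1 rise and 1 fall in T (5% each), 0 rises and 2 falls (10%) in M against Ctrl, and 0 rises and 1 fall in M against T, with medians of -0.14, -0.13 and 0.09. Where limma gave 0 rises, 1 gene was higher in M than in Ctrl and 0 higher than in T at an unadjusted p under 0.05. Dars rose by 0.84 ± 0.30 and Farsb fell by 0.71 ± 0.17 in T. Eprs and Nars fell by 0.66 ± 0.16 and 0.57 ± 0.16 in M against Ctrl, and Nars by 0.63 ± 0.16 in M against T.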

How the data were processed

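Total RNA was hybridised to 9 Agilent 1-colour (Cy3) mouse arrays. Scanned images were read by the authors with Feature Extraction 10.7.3.1, a version named in the processing notes of the submitters. The deposited intensity of each spot has its local background removed and, per the file headers, no scaling across arrays. Control spots and 147 to 299 outlier spots per array were left out, none was saturated, and spots of a probe were averaged. From these intensities log2 values minus the array's 75th percentile were computed. The table of values deposited beside the scanner files served as an alternative. The authors deposited its columns on a log2 scale scaled to the 75th percentile, as the values show, for Ctrl2, Ctrl3, T1, T2 and T3 (medians -3.39, -3.71, -3.76, -3.93 and -4.03), and on a linear scale for Ctrl1, M1, M2 and M3 (medians 215, 195, 246 and 219); its M1 and M2 columns held each other's array, and its T2 column, though log2 and centred alike, equalled no array within 0.001, so what it holds stays unknown. Probe accessions were matched to RefSeq names (GRCm38.p6), which named 26864 probes, 6389 kept the array's name, and 22428 had no symbol. Probes entered the test if some group had all 3 of its arrays well above background, and the brightest tested probe stood for its gene; 7 of the 32 genes had more than 1 tested probe.

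Group means of all 9 arrays were fitted with limma 3.58.1 (R 4.3.3; lmFit, eBayes), with Benjamini-Hochberg adjustment over 18540 genes; the SE pools the spread of all groups. The number of arrays limits the precision. The fit was tested on simulated data with independent noise on each array and no shift by slide, replicate number or scaling. The simulation thus says nothing on how the calls depend on these. Same-numbered Ctrl and T arrays deviated together from their group means (r = 0.55, 0.12 and 0.38). Same-numbered M arrays did not do so with Ctrl (-0.27, -0.19 and 0.02) or T (-0.27, -0.15 and 0.02). Differently numbered arrays were not compared in this way, so the number is not shown to pair the groups. The main fit left the replicate number out, so its p-values are unpaired, and an alternative fitted the number as a block. The genes and lists were chosen with earlier results of these data known. By the naming rule, values per array are given for genes past the threshold with a 2-fold difference in some comparison and for the sensors and factors, and up to 4 genes with the largest called differences are named per list and comparison. Protein ends, planned for display, were not analysed here. The alternatives are described at the end.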

Additional observations from a re-analysis of the deposited data

How the results depend on the processing

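Of the 29 called results of the 32 genes, 9 passed in each of the 23 alternatives, 20 lost the call in at least 1, and 0 turned direction. The 9 were the T rises of Syvn1, Trib3, Chac1 and Sesn2, the M against Ctrl falls of Hsp90b1 and Hyou1, and the M against T falls of Hyou1, Syvn1 and Sel1l. Of the 67 uncalled results, 23 gained a call somewhere. The cause was not tested unless the alternative itself removes arrays or probes.

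The count of genes lower in T than in Ctrl was 6, and it was 12 with the 75th percentile over probes above background on all arrays, 0 under median scaling, 3 with no filter on dim probes, 10 with the mean of a gene's probes, 1 with the deposited table, 0 with that table without its T2 column, and 2 with the replicate block. The replicate block also ended the calls of Sel1l in T (adjusted p = 0.071), of Hspa5 and Sel1l in M against Ctrl (0.062 and 0.072), and of Pdia6 in M against T (0.094). With the block and only the groups compared, an alternative chosen after seeing the data, 1 of the 13 T calls was lost and M against Ctrl gave 0 higher and 3 lower. In M against Ctrl, 2 genes were higher and 6 lower, against 3 lower under median scaling, 1 higher with the deposited table and 1 higher with only the compared groups fitted. Without M1 and M3, also chosen after seeing the data, M2 alone stands for its group and is assumed to vary like the others; this left 0 higher and 2 lower against Ctrl, and 5 lower against T. In M against T, 1 gene was higher with the mean of a gene's probes (Dnajb11, through its dim second probe), and 4 were lower with the deposited table.

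The joint median of folding factors and ERAD in T (-0.35) was 0.074 under median scaling and -0.21 with quantile normalization, and that of ATF4 targets (-0.06) was 0.36 under median scaling. In M against Ctrl the joint median (-0.45) was -0.32 with normexp background correction, -0.15 under median scaling and -0.32 with quantile normalization, and the ATF4 targets (-0.12) were at 0.18 under median scaling and 0.07 without M1 and M3. In M against T the joint median (-0.46) was -0.58 under median scaling and -0.32 with the deposited table, and the ATF4 targets (-0.03) were at 0.15 without M1 and M3.

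Leaving out 1 array at a time gave 5 to 7 genes higher and 0 to 7 lower in T, 1 to 2 higher and 4 to 9 lower in M against Ctrl, and 0 to 1 higher and 5 to 12 lower in M against T. The joint medians then ranged from -0.41 to -0.27, -0.56 to -0.39 and -0.49 to -0.31, and those of the ATF4 targets from -0.13 to -0.003, -0.21 to -0.02 and -0.13 to 0.10. Slide as a block could not be fitted, since slide 2 holds only T, and M against Ctrl within slide 1 is the fit of those groups alone.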

Other observations

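Among the 14 tested genes with ERSE in the promoter window outside the 32, Calr4, a calreticulin relative, was singled out after its values were seen. Its level was -7.44, -7.21 and -5.27 in Ctrl, -3.95, -3.27 and -3.49 in T, and -4.44, -5.02 and -4.36 in M. The probe was above background on 1 of 3 Ctrl arrays and on all T and M arrays, so the Ctrl mean rests largely on signal not above background and the size of the difference is uncertain. The differences from Ctrl were 3.07 ± 0.49 in T (limma adjusted p = 0.0012) and 2.04 ± 0.49 in M (adjusted p = 0.018). The probe of Calr gave -0.43 ± 0.19 and -0.24 ± 0.19 and passed in neither comparison. Near-identical stretches shared by such relatives were not examined here.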
